A study of Mus musculus with 6 samples.

Results

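The clustered protocadherins are cell-surface adhesion proteins of the cadherin superfamily, encoded by tandem gene arrays on mouse chromosome 18. They were followed here across 6 fibroblast lines, each raised from a single cell. Members were taken by symbol, as every Pcdha, Pcdhac, Pcdhb, Pcdhga, Pcdhgb and Pcdhgc gene with a number, which gave 58 gene entries with 57 symbols among 32028 genes. The symbol Pcdha11 covers 2 entries with different Ensembl identifiers, ENSMUSG00000102206 and ENSMUSG00000007440, and these were kept apart. The arrays lie between positions 36930184 and 37841873 of chromosome 18 (GRCm38, plus strand), with 14 alpha entries first, then 22 beta genes, then 22 gamma genes. The samples were poly(A) RNA libraries of mouse embryonic fibroblasts immortalized with SV40 large T antigen that had received Cre recombinase, driven by the CMV promoter, from an AAV8 vector. Clones B5, C6 and F1 (het) came from Macf1flox/+ mice, keep 1 intact Macf1 allele and served as the heterozygous control. Clones A4, A5 and A6 (knockout) came from Macf1flox/flox mice and are labelled knockout. The names of the knockout clones share the letter A, and those of the het clones carry 3 different letters. The sources used here do not give what the letters mark or whether clones of a genotype arose independently, so p-values measure the spread between these clones only.

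In the alpha and gamma arrays each gene has its own promoter and a large variable exon, which codes for the extracellular domains and the membrane span. That exon is spliced to short constant exons at the 3′ end of the array, which code for a cytoplasmic tail shared by all members. Beta genes are single-exon genes without a constant part. In neurons, most alpha, beta, gamma A and gamma B promoters are chosen in a largely random way in each cell, through loops made by CTCF and cohesin, and the resulting mix of proteins lets a neuron tell its own branches from those of others. The C-type genes at the end of the arrays are chosen in a less random way. A line grown from 1 cell is therefore a setting in which the choice of promoter can be compared between clones.

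Each library held 15661342 to 18209673 estimated counts. Macf1, the targeted spectraplakin gene that links actin to microtubules, stood at 656 ± 66.6 CPM (counts relative to the TMM-scaled library size; mean ± SD, n = 3 clones) in het and 331 ± 27.9 CPM in knockout clones. Of 12745 genes tested with edgeR's quasi-likelihood test, 28.1% passed an adjusted p of 0.05. The fibroblast label was checked with 10 markers, of which 6 were lower in knockout clones and none higher, and their summed level was 9698 to 13234 CPM in het clones and 6007 to 8626 CPM in knockouts. Vim and Fn1 were abundant in every clone, while Col1a1 and Col1a2 fell from 1229 and 1056 CPM to 7.40 and 0.816 CPM. Thy1 was near or at 0 in all 6, and Dcn reached at most 1.02 CPM, in B5. Of 10 neuronal markers, 8 were below 1 CPM in every clone. The other 2, Map2 and Tubb3, were lower in knockout clones (40.6 and 7.90 CPM against 16.6 and 0.419 CPM), so the summed neuronal list ran from 36.4 to 65.3 CPM in het clones and from 14.7 to 20.0 CPM in knockouts. Glial markers summed to 13.5 to 29.0 CPM in het clones and 3.18 to 3.88 CPM in knockouts, and epithelial markers to 16.2 to 56.7 and 0.615 to 1.03 CPM. The part of these shifts in the protocadherin results was not tested.

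The 3 arrays differed in level and in the direction of their difference between genotypes. Alpha genes were almost silent. Of 14 entries, 11 had no count in any clone, and the other 3 (Pcdha9, Pcdha11 and Pcdhac2) together had 12, 6 and 12 counts in B5, C6 and F1 and none in A4, A5 and A6. A count of 0 over the knockout libraries allows a level of up to 0.0577 CPM. Beta genes summed to 9.61, 7.85 and 21.98 CPM in B5, C6 and F1, and to 2.65, 3.13 and 3.21 CPM in A4, A5 and A6. The genotypes did not overlap in this sum, whose mean was 4.38-fold higher in het clones, or 2.91-fold without F1, the highest het clone. Gamma A and gamma B genes summed to 29.2 ± 10.4 CPM in het clones and 22.99 ± 4.96 CPM in knockouts, and their ranges overlapped. The 3 gamma C genes summed to 155, 107 and 154 CPM in B5, C6 and F1 and to 251, 237 and 186 CPM in A4, A5 and A6. Here every knockout clone lay above every het clone. The libraries are bulk RNA, so fewer expressing cells and less RNA per cell cannot be told apart.

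**Figure D1:**
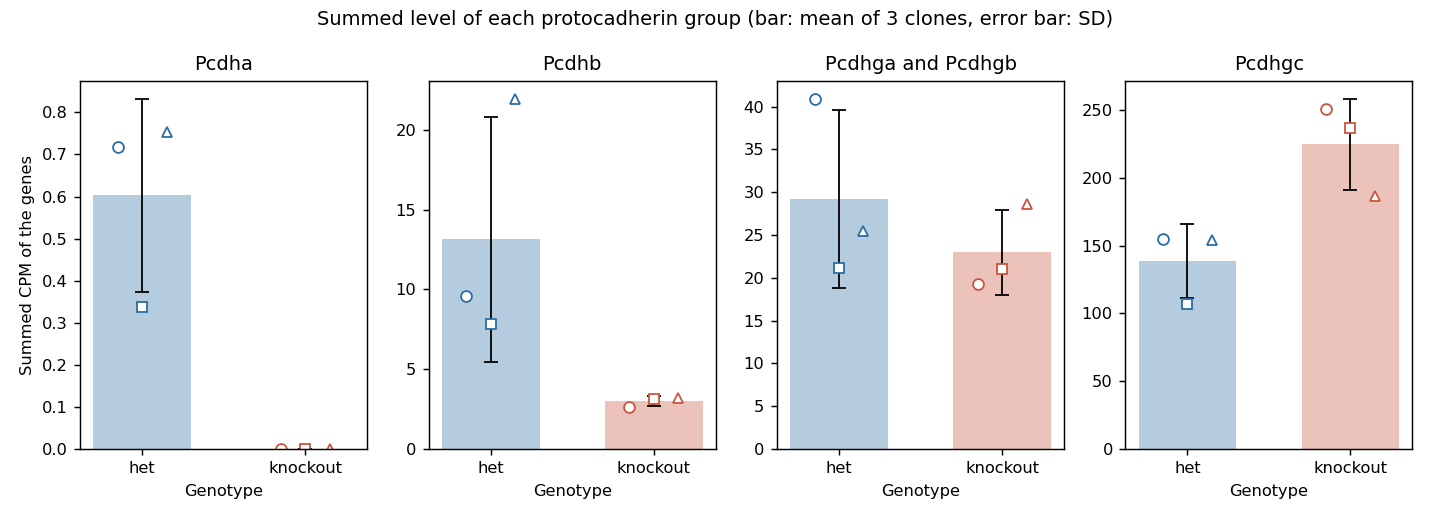
Summed CPM of the Pcdha, Pcdhb, Pcdhga with Pcdhgb, and Pcdhgc genes (vertical axes, each panel with its own scale) in het and knockout clones; bars are means of 3 clones, error bars SD, and points are clones (circle B5 or A4, square C6 or A5, triangle F1 or A6). The Pcdhb sum is 7.85 to 21.98 CPM in het clones and 2.65 to 3.21 CPM in knockouts, whereas the Pcdhgc sum is higher in the knockout clones.

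A filter on low counts kept 15 members, 2 beta and 13 gamma genes, and 43 were not tested. Of the 15, 5 passed (33.3%), against 28.1% of all tested genes. Lower in knockout clones were 3 members (14.2% of all genes passed in that direction), namely Pcdhb17, Pcdhga9 and Pcdhgb7, and higher were 2 (13.9% of all genes), namely Pcdhgb2 and Pcdhgc3. The share that passed was near that of genes in general. The median log2 fold change of the 15 was -0.84, and that of all tested genes was -0.00061. Genotypes did not overlap in 10 of the 15, against 47.5% of all tested genes. The filter asked for 0.582 CPM in at least 3 clones, with CPM taken on library totals before TMM scaling. On that scale Pcdhb17 and Pcdhga9 reached it in het clones only and Pcdhga12 in knockout clones only. Pcdhga4 reached it in A6 and the het clones, but on the TMM-scaled values printed here in het clones only. Pcdhgb6 and Pcdhgb7 also reached it in A6 and the het clones, and in neither A4 nor A5. Members that entered through 1 genotype had to differ, so the counts and the median over the 15 describe them and support nothing.

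**Figure D2:**
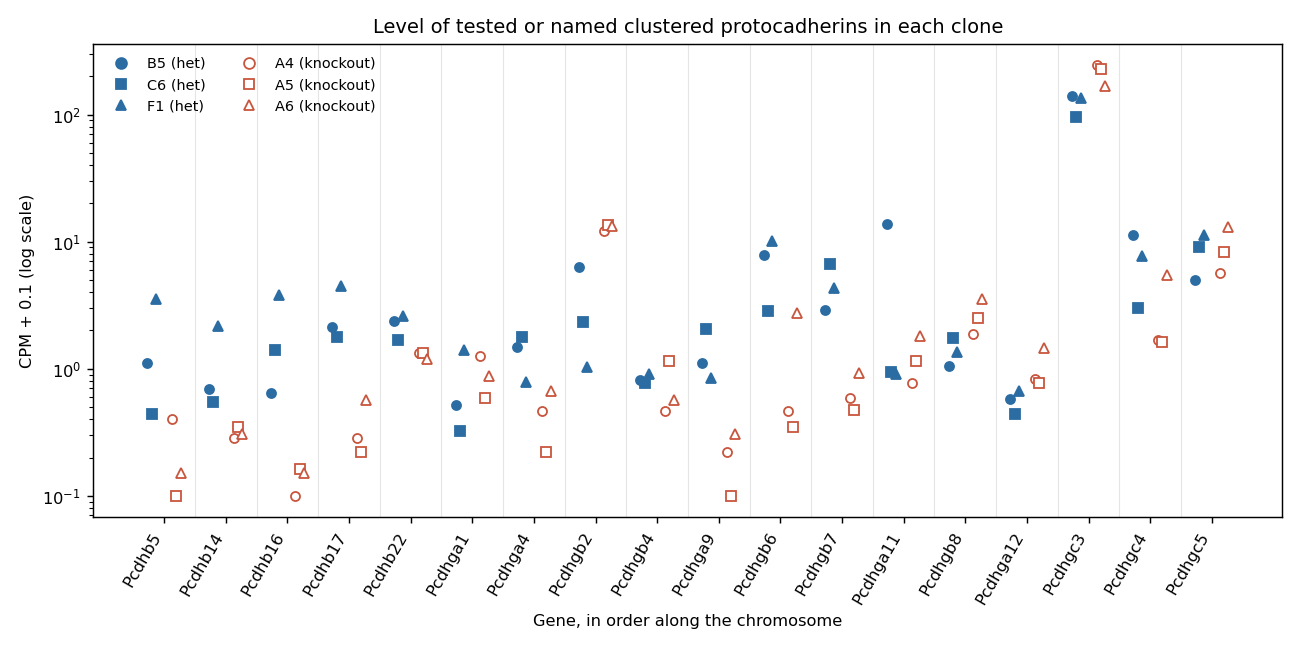
CPM + 0.1 on a log axis of the 15 tested members and of Pcdhb5, Pcdhb14 and Pcdhb16 in each clone, in order along the chromosome; filled blue symbols are het and open red symbols knockout clones. Pcdhgc3 stands far above the rest at 95.2 to 244 CPM, Pcdhgb2 is near 13 CPM in all 3 knockout clones, and Pcdhga11 is high in B5 alone.

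Among the beta genes, Pcdhb17 (chromosome 18, 37484795 to 37489454) was the gene that passed, and it had entered the test through its het clones alone. It stood at 2.03, 1.69 and 4.39 CPM in B5, C6 and F1 and at 0.183, 0.123 and 0.465 CPM in A4, A5 and A6. No knockout clone came within the het range. The log2 fold change was -3.32 (SE 0.62, adjusted p = 0.0101, edgeR), and the summed counts of 134 and 14, scaled to library size, differed 9.86-fold with a counting interval of 5.68 to 18.5. With no filter on low counts, where entry did not depend on 1 genotype, it also passed (adjusted p = 0.00658, edgeR). The call was lost without A5 (adjusted p = 0.0514, edgeR), and the log2 fold change was -4.08 without A6. Pcdhb22, the last gene of the array (37517871 to 37524479), measured 2.27, 1.57 and 2.51 CPM in B5, C6 and F1 and 1.22, 1.23 and 1.09 CPM in A4, A5 and A6. Its groups did not overlap, yet it did not pass (log2 fold change -0.84, SE 0.32, adjusted p = 0.0882, edgeR). Per kilobase of annotated transcript, Pcdhb17 and Pcdhb22 stood at 0.580 and 0.450 CPM per kb in het clones and at 0.0552 and 0.224 CPM per kb in knockout clones. Thus Pcdhb22 made up 34.4% to 45.5% of beta counts in knockout clones, and 23.6%, 20.1% and 11.5% in B5, C6 and F1.

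Other beta genes were below the filter in at least 4 clones. Pcdhb16 had 9.0, 23.2 and 59.3 counts in B5, C6 and F1 and 0, 1.0 and 1.1 in A4, A5 and A6. Its summed counts of 91 and 2 differed 46.9-fold, with a counting interval of 12.6 to 393. Pcdhb5 had 16.5, 6.0 and 55.5 counts in the het and 4.7, 0 and 1.4 in the knockout clones, a 13.4-fold difference (interval 5.88 to 37.6). Pcdhb14 had 10, 8.3 and 33.3 counts against 3.0, 4.4 and 4.2 (4.78-fold, interval 2.46 to 10.2). For each of the 3, F1 was the highest clone and the genotypes did not overlap. With no filter on low counts, where 8.19% of all genes passed as lower, Pcdhb16 passed and Pcdhb5 and Pcdhb14 did not (adjusted p = 0.00631, 0.0749 and 0.0586, edgeR). DESeq2 called Pcdhb16 and Pcdhb5 (adjusted p = 0.000386 and 0.0149). With no filter, the edgeR log2 fold change was -3.67 for Pcdhb5 and -5.32 for Pcdhb16. In the edgeR fit without A4, which kept the filter on low counts, the values were -5.52 and -4.86, in that order. Pcdhb19 also passed with no filter, and is named outside the naming rule.

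Most beta counts came from the gamma side of the array. The 13 genes Pcdhb1 to Pcdhb13 summed to 2.25, 0.903 and 4.73 CPM in B5, C6 and F1 and to 0.289, 0.123 and 0.279 CPM in A4, A5 and A6. The 9 genes Pcdhb14 to Pcdhb22 summed to 7.36, 6.94 and 17.2 CPM and to 2.36, 3.01 and 2.93 CPM. Het means were 11.4-fold and 3.80-fold higher, or 6.83-fold and 2.58-fold without F1. This split of the array was chosen after the values were seen. Pcdhb1 had no count in any clone. All 21 beta genes with a count had a lower mean in knockout clones. Of the 16 without values by clone here, Pcdhb18 had the most counts, 71 over all 6 clones, and Pcdhb3 the fewest, 2.

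**Figure D3:**
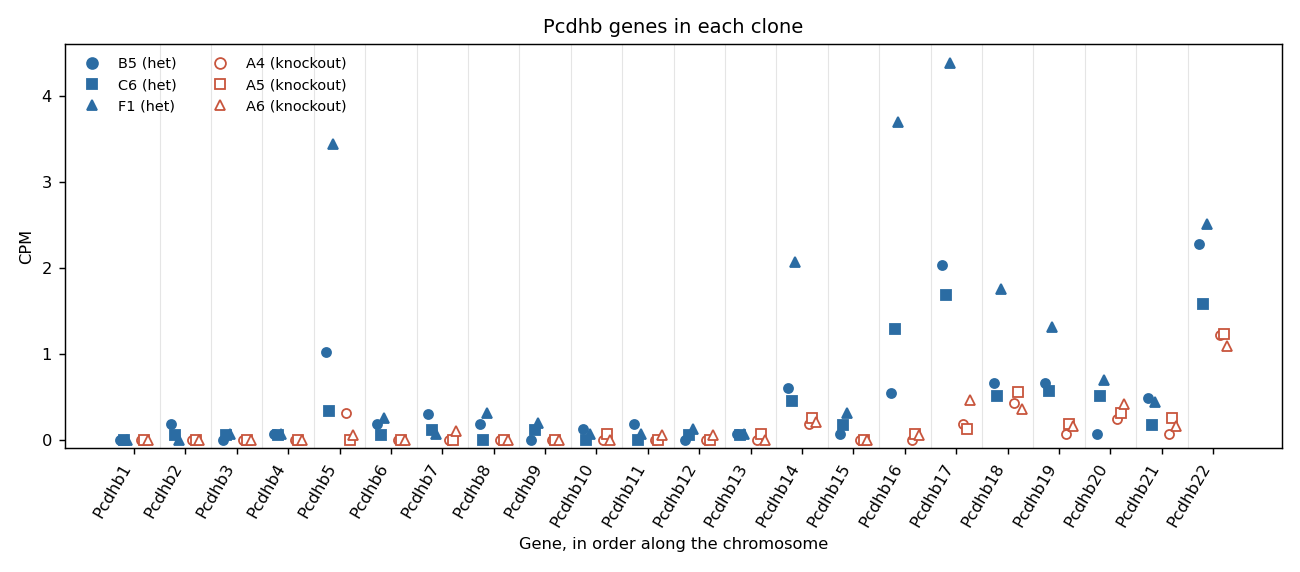
CPM of the 22 Pcdhb genes in each clone, in order along the chromosome; filled blue symbols are het and open red symbols knockout clones. Levels above 1 CPM lie at Pcdhb5, Pcdhb14, Pcdhb16 to Pcdhb19 and Pcdhb22, and F1 (filled triangle) is the highest clone for each of these genes.

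The gamma levels are estimates of a particular kind. Pcdhgb8-202, a shorter 4-exon form of 2796 bases, was left out here. The other 19 gamma A and gamma B transcripts of 4 exons are 1.72 to 1.85 times as long as their own first exon. Their remainder is the shared constant part. Of their 31-base words, 32.2% to 58.3% occurred in no other gene, against 77.5% to 100% for the 26 beta transcripts. A read from the constant exons is divided among members by the estimation. Of 48 estimated counts of these 19 transcripts that lay between 0.5 and 12, 31 were within 0.15 of a multiple of 1.9, a step chosen after the values were seen. This count is a description, with no expected share beside it.  Counting intervals of gamma genes understate the error, because they leave out the division of constant-exon reads. The sum over the array was 168 ± 35.3 CPM in het clones and 248 ± 28.9 CPM in knockouts. That sum does not depend on how reads were divided within the array.

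Pcdhgc3 (chromosome 18, 37806364 to 37841873), a C-type gene, was the dominant clustered protocadherin of these cells. It stood at 139, 95.2 and 135 CPM in B5, C6 and F1 and at 244, 227 and 168 CPM in A4, A5 and A6. The lowest knockout clone, A6, lay above the highest het clone. The log2 fold change was 0.79 (SE 0.20, adjusted p = 0.0248, edgeR), and Pcdhgc3 rose 1.72-fold by summed counts scaled to library size. The call was lost without C6, F1, A4 or A5 (adjusted p = 0.0673, 0.0533, 0.0862 and 0.0932, edgeR) and with transcripts as units (0.0574). In the authors' deposited table its 4-exon transcript Pcdhgc3-201 had a log2 fold change of 0.84 and an adjusted p of 0.00783. Per kilobase it measured 26.5 ± 5.18 CPM per kb in het and 45.7 ± 8.53 CPM per kb in knockout clones, more than any other member. It took 70.8%, 74.2% and 75.3% of gamma counts in B5, C6 and F1 and 90.1%, 88.0% and 78.2% in A4, A5 and A6. The share in A6 was nearer to the het clones than those of the other knockout clones. A single-exon retained-intron form, Pcdhgc3-203, measured 3.21 ± 0.62 CPM in het clones and 4.04 ± 0.834 CPM in knockouts and did not pass (log2 fold change 0.33, SE 0.31, adjusted p = 0.561, edgeR, transcripts as units).

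The other C-type genes did not pass. Pcdhgc5 stood at 4.91, 8.99 and 11.1 CPM in B5, C6 and F1 and at 5.62, 8.18 and 12.9 CPM in A4, A5 and A6. These ranges overlapped almost fully (log2 fold change 0.10, SE 0.40, adjusted p = 0.876, edgeR). Per kilobase it reached 1.97 ± 0.991 CPM per kb in het and 2.84 ± 0.29 CPM per kb in knockout clones. This value adds transcripts after dividing each by its length, so short forms weigh heavily. A form of 593 bases had 0, 2.6 and 7.2 counts in B5, C6 and F1 and 17.6, 10.2 and 6.4 in A4, A5 and A6. Only 25.9% of the 31-base words of that form are its gene's own. The higher and tighter value per kilobase in knockout clones is therefore uncertain. Pcdhgc4 stood at 11.3, 2.92 and 7.65 CPM in B5, C6 and F1 and at 1.59, 1.54 and 5.38 CPM in A4, A5 and A6 (log2 fold change -1.35, SE 0.67, adjusted p = 0.175, edgeR). A6 and C6 were the clones that made its groups overlap. Much of the Pcdhgc4 count came from Pcdhgc4-203, a transcript of which only 6.74% of 31-base words are its gene's own. Its estimates were 137, 21.1 and 70.4 counts in B5, C6 and F1 and 0, 0 and 67.0 in A4, A5 and A6. The 4-exon form Pcdhgc4-201 had 41.6, 0 and 37.9 counts and 22.1, 16.3 and 30.0 counts (log2 fold change -0.26, adjusted p = 0.922, edgeR, transcripts as units), so the gene's level is uncertain.

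Clones differed in which gamma A or gamma B gene led. In B5, Pcdhga11 led with 33.3% of the gamma A and gamma B counts (exact Clopper-Pearson 95% interval 29.8% to 37.0%, counting error only). In C6, Pcdhgb7 led with 30.95% (26.3% to 35.9%). In F1, Pcdhgb6 led with 39.2% (34.4% to 44.1%). Each het clone thus had a leading gene of its own, but the genes that came next were partly shared. Pcdhgb6, the leader in F1, came next in B5 and C6, with 18.8% and 12.96%. Pcdhgb7, the leader in C6, came next in F1, with 16.5%. In A4, A5 and A6 the leader was Pcdhgb2 each time, with 62.1% (56.5% to 67.4%), 64.0% (58.6% to 69.0%) and 46.4% (42.2% to 50.6%). Pcdhgb8 came next in all 3 knockout clones, with 9.09%, 11.3% and 11.9%. In B5, C6 and F1 Pcdhgb2 held 15.04%, 10.6% and 3.69%.

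**Figure D4:**
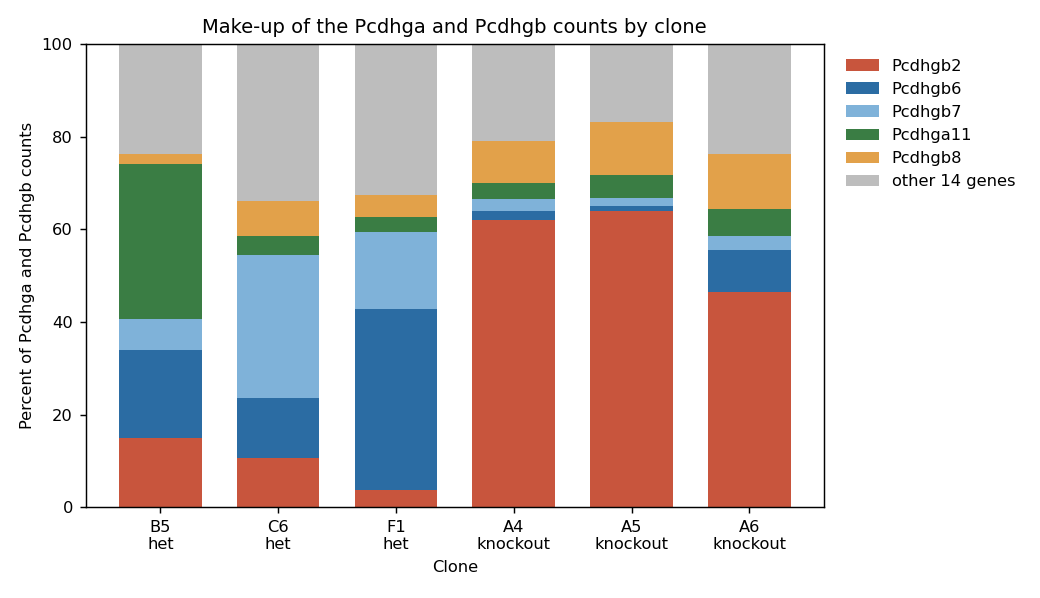
Percent of all Pcdhga and Pcdhgb estimated counts of a clone (vertical axis) taken by the 5 genes that led or came second in a knockout clone or led in a het clone, with the other 14 genes in grey. Pcdhgb2 takes 46.4% to 64.0% in the knockout clones and at most 15.04% in the het clones, where the leader differs from clone to clone.

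Pcdhgb2 (chromosome 18, 37689828 to 37841873) was the gamma B gene that rose. It stood at 6.16, 2.25 and 0.941 CPM in B5, C6 and F1 and at 12.1, 13.5 and 13.3 CPM in A4, A5 and A6. The knockout clones lay within 1.12-fold of each other and the het clones within 6.55-fold. The log2 fold change was 2.05 (SE 0.60, adjusted p = 0.0445, edgeR). The call was lost without C6, F1, A4, A5 or A6 (adjusted p = 0.134, 0.0531, 0.111, 0.125 and 0.0954, edgeR), with no filter (0.0702), with transcripts as units (0.277) and with limma on log2(FPKM + 0.1) (0.0547). Without B5 the log2 fold change was 3.00. In F1 all of its 15 counts were assigned to a retained-intron form and none to the 4-exon transcript. That transcript, Pcdhgb2-202, had a log2 fold change of 2.30 and an adjusted p of 0.0562 in the authors' deposited table. The deposited FPKM values for it were 1.24, 0.484 and 0 in B5, C6 and F1 and 2.69, 2.89 and 2.93 in A4, A5 and A6.

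Pcdhgb7 (37751600 to 37841873) and Pcdhga9 (37736936 to 37841870) fell in knockout clones. Pcdhgb7 stood at 2.81, 6.58 and 4.20 CPM in B5, C6 and F1 and at 0.488, 0.369 and 0.827 CPM in A4, A5 and A6. The groups were well apart, with a log2 fold change of -2.98 (SE 0.48, adjusted p = 0.00586, edgeR). It passed in every alternative in which it was fitted, with log2 fold changes from -3.38 to -2.62. Among the knockout clones only A6 reached the level of the filter for Pcdhgb7, and with no filter the adjusted p was 0.00316 (edgeR). Pcdhga9 stood at 1.02, 1.97 and 0.752 CPM in B5, C6 and F1 and at 0.122, 0 and 0.207 CPM in A4, A5 and A6 (log2 fold change -3.38, SE 0.78, adjusted p = 0.0198, edgeR). Pcdhga9 too had entered the test through its het clones alone, and with no filter its adjusted p was 0.0177 (edgeR). In B5 its 17.0 counts were all assigned to the retained-intron form. Its log2 fold change was -4.20 without A6, and the call was lost without C6, A4 or A5 (adjusted p = 0.0681, 0.0756 and 0.0554, edgeR).

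Other gamma genes did not pass, and in some a single clone stood apart. Pcdhga11 (37755731 to 37841873) stood at 13.6 CPM in B5, against 0.843 and 0.815 CPM in C6 and F1 and 0.672, 1.05 and 1.71 CPM in A4, A5 and A6. B5 was thus 16.7-fold above F1. The log2 fold change was -2.14 (SE 1.18, adjusted p = 0.219, edgeR) and turned to 0.46 without B5. Pcdhgb6 (37742094 to 37841873) stood at 7.72, 2.75 and 9.97 CPM in B5, C6 and F1 and at 0.366, 0.246 and 2.64 CPM in A4, A5 and A6. A6 was 10.7-fold above A5 and just below C6 (log2 fold change -2.62, SE 0.93, adjusted p = 0.0790, edgeR), and without A6 the gene passed (-4.45, adjusted p = 0.0115, edgeR). Pcdhga4 measured 1.38, 1.69 and 0.690 CPM against 0.366, 0.123 and 0.569 CPM (log2 fold change -1.79, adjusted p = 0.0619, edgeR). In the opposite direction, Pcdhgb8, annotated as a polymorphic pseudogene, measured 0.958, 1.63 and 1.25 CPM against 1.77, 2.40 and 3.41 CPM (log2 fold change 0.98, SE 0.38, edgeR adjusted p = 0.0956). Its groups did not overlap. The other tested members, Pcdhga1, Pcdhgb4 and Pcdhga12, had log2 fold changes of 0.32, -0.24 and 0.9999 with adjusted p of 0.757, 0.740 and 0.133 (edgeR).

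The remaining 9 gamma genes were not tested. They stayed at or below 1.44 CPM in every clone, and their summed counts were 202 in het and 108 in knockout clones. With no filter on low counts, 8 of 46 members passed, 7 lower and 1 higher, against 16.5% of all genes. Besides the genes named above, these were Pcdha11 (11 counts in het clones, none in knockout) and Pcdhga10 (2.0, 15.1 and 15.3 counts in B5, C6 and F1 against 0, 1.9 and 0), both named outside the naming rule. The Pcdha11 counts lay in retained-intron forms and a form of 625 bases, and its longer protein-coding transcripts had none. With no filter, adjusted p of Pcdha11 and Pcdhga10 were 0.0497 and 0.0482 (edgeR). Pcdhgb2 was the member that no longer passed there. The number of members with at least 0.5 counts was 43, 40 and 42 in B5, C6 and F1 and 27, 27 and 33 in A4, A5 and A6. Most of this gap lay in the beta array, with 18, 18 and 20 genes against 8, 10 and 12. Over all genes, 17177, 17447 and 17333 had a count above 0 in B5, C6 and F1. In A4, A5 and A6 the numbers were 16292, 16501 and 17190.

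Estimates for these genes differed more between clones of a genotype than is typical. The biological coefficient of variation, edgeR's estimate of the spread between clones of a genotype beyond counting noise, had a median of 0.426 over the 15 tested members and of 0.183 over all tested genes. Low genes have a larger spread. Without Pcdhgc3, the median was 0.438 over 14 members and 0.334 over the 2791 genes in the same range of mean level, 0.678 to 8.61 CPM. The lowest value was 0.194, for Pcdhgc3, and the highest 0.906, for Pcdhga11. Of the 15 members, 13 are gamma genes, whose spread can also hold error from dividing reads of the constant exons. The 2791 genes were matched on mean level and not on shared sequence. These are descriptions with no test.

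Genes that govern or serve the clustered protocadherins were read from the same fit. Of 11 genes of CTCF and cohesin, which loop promoters to enhancers, Stag2 rose (161 ± 2.98 to 211 ± 28 CPM, adjusted p = 0.0444, edgeR) and 10 did not pass. The call of Stag2 was lost with any 1 clone left out (adjusted p = 0.0565 to 0.128, edgeR), and with limma-voom, library totals and the stricter filter. Rad21 and Smc1a, the most abundant, measured 547 and 352 CPM in het clones and 522 and 332 CPM in knockouts. Of 15 genes of DNA and histone methylation, 1 fell, 2 rose and 12 did not pass. Tet1, which oxidizes methylated cytosine, fell from 3.15 ± 1.19 to 0.565 ± 0.185 CPM. Wiz, a zinc-finger partner of the G9a methyltransferase, rose from 97.5 to 125 CPM. Adjusted p of Tet1 and Wiz were 0.00757 and 0.0267 (edgeR). Wiz lost its call without C6, F1, A4 or A5 and with transcripts as units. Among those that did not pass were Dnmt1 (480 and 524 CPM) and Uhrf1 (258 and 302 CPM).

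Of 18 tested partners inside the cell, 2 rose, 4 fell and 12 did not pass. Ptk2b, a focal adhesion kinase known as Pyk2 that gamma and alpha tails inhibit, fell from 24.4 ± 2.49 to 2.60 ± 0.524 CPM. The actin-regulating WAVE complex was split, with Abi1 higher (116 ± 10.3 to 281 ± 39.5 CPM) and Wasf3 and Wasf2 lower (5.27 to 0.134 and 171 to 135 CPM). Adjusted p of the 4 genes were 0.000192, 0.00147, 0.00291 and 0.0269 (edgeR). Wasf2 lost its call with no filter, with transcripts as units and without any 1 clone except A6. Nckap1 and Rac1, the most abundant others, did not pass. Of 7 genes of the proteases that cut protocadherins at the membrane, 3 rose, 2 fell and 2 did not pass. Psen2, of the gamma-secretase complex, rose from 5.39 to 12.04 CPM, while the genes of its subunits Aph1b and Psenen fell from 25.5 to 15.5 and from 44.8 to 33.5 CPM. Adjusted p were 0.00423, 0.0110 and 0.0218 (edgeR). Psenen lost its call without C6, F1 or A5, Aph1b without A5, and both with transcripts as units. Adam10, the sheddase, stood at 126 and 167 CPM and did not pass (adjusted p = 0.0577, edgeR), and Ncstn stood at 132 and 164 CPM. Over these 4 lists 15 of 51 tested genes passed (29.4%), near the 28.1% of all genes.

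Protocadherins outside the arrays were few. Of 12, only 3 were tested. Pcdh19, a delta-protocadherin, fell from 65.5 ± 21.9 to 7.52 ± 2.42 CPM (adjusted p = 0.00206, edgeR), and Pcdh18 from 51.6 ± 20.8 to 22.9 ± 5.38 CPM (adjusted p = 0.0329, edgeR), a call lost without A4, A5 or A6, with no filter and with transcripts as units. Pcdh1 stood at 2.46 and 0.73 CPM and did not pass. Among the giant and seven-pass cadherins, 5 of 9 were tested. Fat4 fell from 148 ± 35.5 to 7.53 ± 8.16 CPM, Fat1 rose from 466 ± 121 to 847 ± 163 CPM, and Celsr1 fell from 5.69 to 0.586 CPM with B5 at the knockout level (0.598 CPM). Adjusted p were 0.0157, 0.0362 and 0.0413 (edgeR). Celsr1 lost its call without any 1 clone except B5, Fat1 without any 1 clone except A6, and Fat4 without A5, and further settings removed those of Celsr1 (limma-voom, no filter, transcripts as units) and Fat1 (transcripts as units).

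Few of the genes beside the arrays passed. Of 25 tested genes that start within 500 kb of the arrays or between them, 1 rose, 2 fell and 22 did not pass, so 12% passed against 28.1% of all genes. Their median log2 fold change was -0.33, below that of all tested genes (-0.00061). Whether they share a shift with the arrays was not tested. Cd14, a receptor for lipopolysaccharide, rose from 7.95 ± 3.44 to 18.9 ± 2.6 CPM, and Hdac3, a histone deacetylase gene, and Apbb3 fell from 125 to 85.9 and from 13.2 to 7.07 CPM (adjusted p = 0.0257, 0.0280 and 0.0443, edgeR). Apbb3 lost its call without any 1 clone, Cd14 without C6, F1, A4 or A5, and Hdac3 without F1, A4, A5 or A6. Ik and Hars, the most abundant, measured 179 and 186 CPM in het clones and 170 and 166 CPM in knockouts. Taf7, the only tested gene between the arrays, stood at 6.39 and 9.17 CPM and did not pass (log2 fold change 0.52, adjusted p = 0.103, edgeR). It was named for its position after its values were seen.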

How the data were processed

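Poly(A) RNA of 3 het and 3 knockout clones was sequenced with a stranded kit. The authors deposited estimated counts per transcript, not normalized. The submitters' processing notes name Trimmomatic 0.36, kallisto 0.42.5, edgeR and GRCm38.p4. The authors also deposited FPKM values for 24799 transcripts and a table of their own comparison with log2 fold changes and p-values. Gene symbols were taken from GENCODE M21 for 95213 transcripts and from the authors' deposited table for 260. The other 1153 held at most 0.0278% of counts and were left out.

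Estimated counts were summed per gene and rounded. Genes were filtered with edgeR 4.0.16 (filterByExpr, minimum count 10 and total 15), given TMM factors and fitted with the quasi-likelihood method (robust option) in R 4.3.3. P-values were adjusted by Benjamini-Hochberg over all 12745 genes, and positive log2 fold changes mean higher in knockout clones. Standard errors were derived from the log2 fold change and its F statistic. Alternatives were DESeq2 1.42.0, limma 3.58.1 (voom, and log2 FPKM with pseudocounts of 1 and 0.1), other scalings and filters, transcripts as units, and each clone left out. The main edgeR fit, and none of the alternatives, was tested on simulated data. Intervals are exact at 95% and cover counting error only. Those of folds use counts summed over the clones of a genotype and leave out the spread between clones. Reads carry no molecular identifiers. A level of 0 allows up to 3 counts. Totals per library are given in the report.

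Members and gene lists were chosen with earlier results of these data known. Named with values by clone were members that passed or averaged at least 1 CPM in a genotype. From each other list, up to 4 passing genes with the smallest adjusted p and the 2 most abundant others were named. Some genes that this rule names are not reported here.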

Additional observations from a re-analysis of the deposited data

How the results depend on the processing

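The 5 of 15 members that passed (3585 of 12745 genes) became 9 of 29 with DESeq2 (4450 of 14834 genes), 8 of 46 with no filter on low counts (3367 of 20396 genes), 2 of 15 with transcripts as units (2750 of 34655 transcripts), and 2 and 1 with log2(FPKM + 1) and log2(FPKM + 0.1), tables that hold 2 members. Leaving out 1 clone gave 1 to 8 members (1 without A5, 3 without C6, F1 or A4, 8 without A6), 7 to 15 regulators and partners (main 15; 8 without C6, 9 without F1, 8 without A4, 7 without A5), 1 to 6 other cadherins (main 5; 3 without C6, F1 or A6, 2 without A4, 1 without A5) and 1566 to 3825 genes (main 3585; 2227 without C6, 1892 without A4, 1566 without A5). With no filter 3 other cadherins passed. With log2(FPKM + 1), 1892 genes were higher and 1368 lower, and with log2(FPKM + 0.1) 1845 and 1351, against 1771 and 1814. The cause was not tested.

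With 1 clone left out, log2 fold changes ran from -2.66 to 0.46 for Pcdhga11, -0.28 to 0.35 for Pcdhgc5, -0.11 to 1.32 for Pcdhga1, -0.81 to 0.0248 for Pcdhgb4, -0.32 to 0.0216 for Hars and -0.0472 to 0.0793 for Rac1. With transcripts as units Smc1a stood at 0.0357 and Rad21 at 0.0041. None of these genes passed. Of 209 alternative values of 18 members, 177 kept direction and side of the threshold, 17 lost and 9 gained a call, and 6 reversed. Of 496 values of 34 other genes, the numbers were 414, 70, 6 and 6.

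No paired analysis was possible because no label ties a clone of 1 genotype to a clone of the other by culture, litter or batch. Of the 43 members below the filter, 31 had counts and were fitted only in settings with another filter or with a clone left out, and 12 had no count in any clone.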
